A study of Saccharomyces cerevisiae with 9 samples.

Results

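The hexose transporter and hexose kinase genes carry glucose into the yeast cell and trap it there as glucose 6-phosphate. The 10 genes described here were chosen by name, with earlier results of these data known: the transporters HXT1 (YHR094C), HXT2 (YMR011W), HXT3 (YDR345C), HXT4 (YHR092C), HXT5 (YHR096C), HXT6 (YDR343C) and HXT7 (YDR342C), and the kinases HXK1 (YFR053C), HXK2 (YGL253W) and GLK1 (YCL040W). They are 10 of the 7126 genes in the table, 7 transporters and 3 kinases. All 10 were listed, and 9 passed the filter on low values, with HXT6 below it.

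Poly-A RNA was sequenced from diploid yeast of the W303 background in 3 strains, with 3 libraries each. In sam1Δ/sam1Δ both copies of SAM1 were replaced by KANMX, in sam2Δ/sam2Δ both copies of SAM2 were replaced by LEU2, and wildtype carried both genes. SAM1 and SAM2 encode the S-adenosylmethionine synthetases, which make the main methyl donor of the cell. All strains, wildtype included, were MAT a/α, carried mutant alleles of ADE2, HIS3, LEU2, TRP1 and URA3 on both homologues and of CAN1 and LYS2 on one of them, and held a pair of chromosome fragments (CF) marked with TRP1 and SUP11. The sam1Δ/sam1Δ cultures grew in SC medium with G418, the sam2Δ/sam2Δ cultures in SC without leucine and the wildtype cultures in SC, all at 30 °C to an OD600 of 0.5 to 0.6. The medium differed with the strain, so a deletion and its medium cannot be told apart in any comparison.

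The HXT proteins are sugar carriers of the plasma membrane that let glucose flow down its gradient, and they differ in their affinity for glucose. HXT1 and HXT3 are low-affinity carriers of cells in ample sugar, HXT2, HXT4, HXT6 and HXT7 serve cells at low glucose, and HXT5 is known from slowly growing cells. The transcription of many of them is set in part by the repressor Rgt1, which leaves their promoters when the membrane sensors Snf3 and Rgt2 detect glucose, and by the repressors Mig1 and Mig2, which act when glucose is high. HXK2 is the main hexokinase of cells on glucose, while HXK1 and GLK1 are known to be held low there.

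Values are signal, the read number of a gene after division by the size factor of its library. Library totals were 9.38 to 11.9 M, and 1 read was worth a signal of 0.443 to 2.18, which puts the depth at 4.90 to 23.8 M reads. The 10 genes held 0.723 to 1.83% of a library. The strains matched their labels: SAM1 averaged 0.945 ± 0.892 in sam1Δ/sam1Δ and 9253 ± 6868 in wildtype, and SAM2 averaged 4.56 ± 2.24 in sam2Δ/sam2Δ and 25439 ± 12156 in wildtype (SD, n = 3 each). All 8 haploid-specific genes examined were listed, and their summed signal was 455 to 546 in sam1Δ/sam1Δ, 425 to 1345 in the sam2Δ/sam2Δ libraries and 459 to 494 in wildtype. The high value was that of sam2Δ/sam2Δ replicate 3, in which the G protein gene STE18 stood at 149, against 4.36 to 7.28 in the other sam2Δ/sam2Δ libraries. GPA1 stood there at 386, STE4 at 372 and STE3 at 282, against at most 141, 203 and 55.8 in those libraries. STE2, at 113, lay between their values of 144 and 78.4. Wildtype replicate 1 also stood apart, with a score of -47.4 on the first principal component of all tested genes, against 22.1 and 14.4 in wildtype replicates 2 and 3.

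HXT3 and HXT2 were lower in sam2Δ/sam2Δ than in wildtype by the cutoffs of the study (a cutoff of 0.05 on P before adjustment and of 0.58 on the size of the log2FC), and the groups did not overlap. Of all genes tested in that comparison, 9.85% met the cutoffs and 22.3% had groups that did not overlap. HXT2 also met the cutoffs in sam1Δ/sam1Δ, beside 1.15% of all genes, with groups that overlapped. No member met them with a higher level in a mutant, and none passed an adjusted P of 0.05 in limma. HXK1, GLK1 and HXT7 varied more between libraries of 1 strain than between strains.

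**Figure D1:**
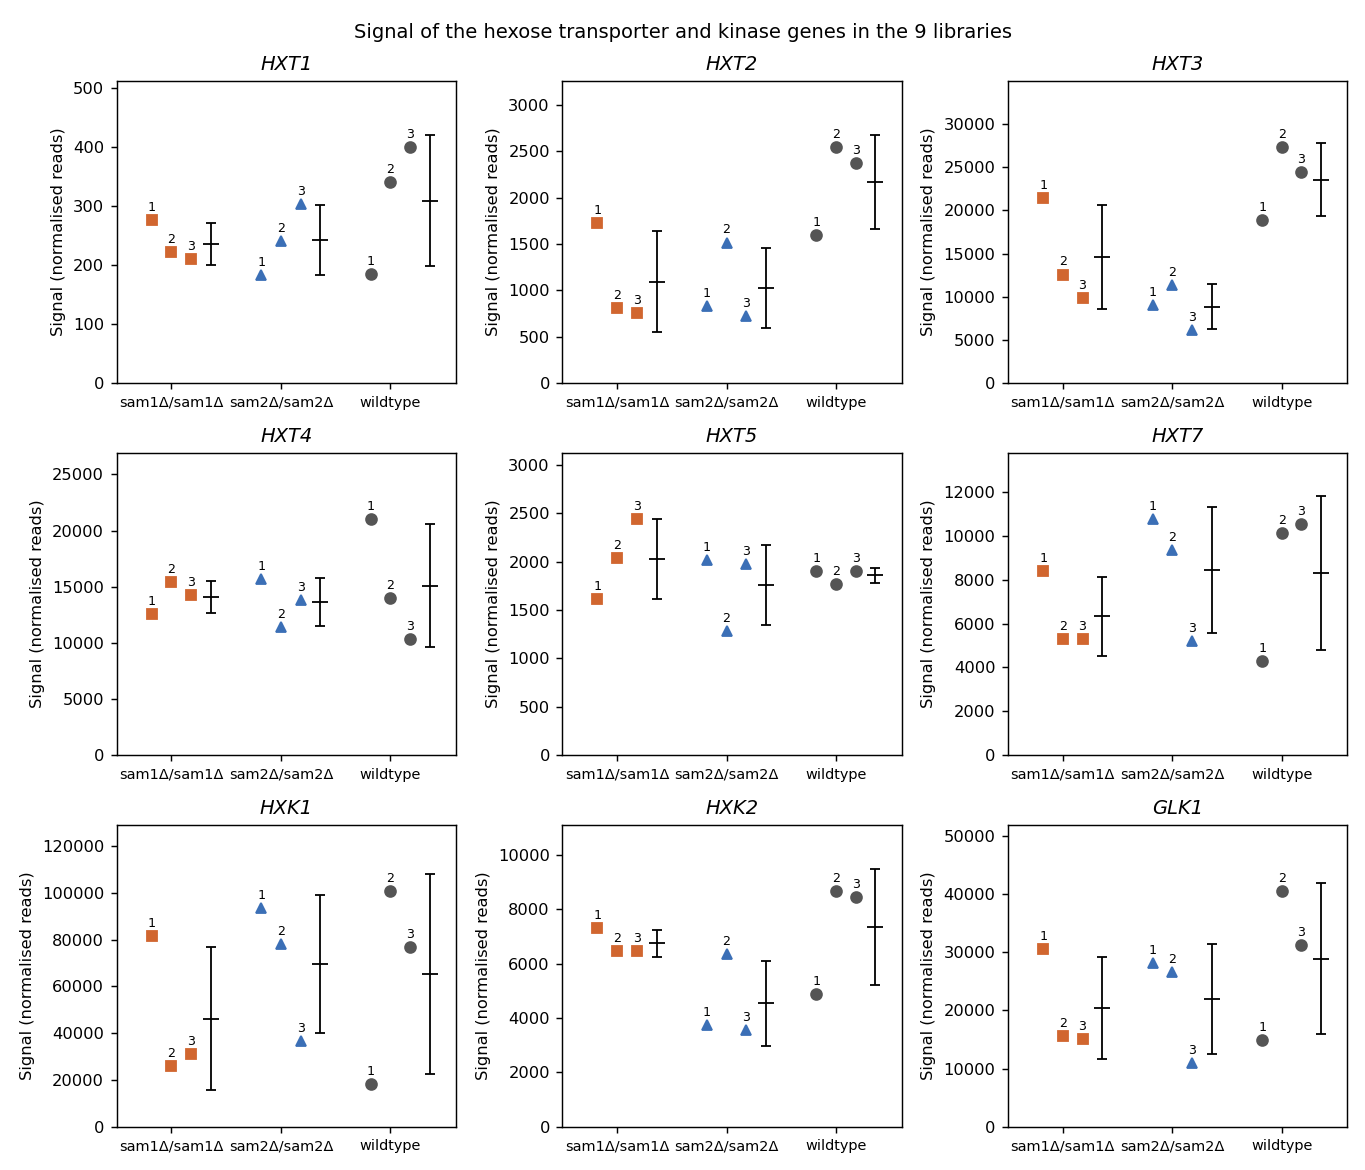
Signal (linear axis from 0) of the 9 tested genes in each library, with the replicate number above each point and the mean ± SD (n = 3) as a bar to the right of each strain. The 3 HXT3 values of sam2Δ/sam2Δ lie between 6133 and 11416, below all wildtype values, while HXK1 spans 18124 to 100890 within wildtype alone.

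By median signal per kb of coding sequence, the kinases HXK1 and GLK1 stood above every transporter, although HXT4 exceeded GLK1 in some libraries (GLK1 was higher in 7 of 9). The median over the 9 libraries was 52803 signal per kb for HXK1 and 17697 for GLK1, and HXK1 exceeded GLK1 in 9 of 9 libraries. HXT4 (8058), HXT3 (7381) and HXT7 (4917) led the transporters, and HXK2 stood beside HXT7 at 4423. HXT4 exceeded HXT3 in 5 of 9 libraries and HXT7 exceeded HXK2 in 4 of 9, so neither pair has a fixed order. HXT5 (1073) and HXT2 (932) formed a lower pair, with HXT5 ahead in 5 of 9 libraries. HXT1, the low-affinity carrier, had a median of 141 signal per kb and lay below HXT2 in all 9 libraries. HXT6 came last with 0.447.

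HXT3, a low-affinity carrier, is encoded on chromosome IV (1162957 to 1164660, minus strand, R64 assembly). Its signal was 9035, 11416 and 6133 in sam2Δ/sam2Δ, against 18924, 27315 and 24430 in wildtype. All 3 mutant libraries lay below the lowest wildtype library. The log2FC was -1.44 (SE 0.33), a 2.71-fold lower level (adjusted P = 0.224 by limma), past the cutoffs. In sam1Δ/sam1Δ the signal was 21379, 12577 and 9832, so that replicate 1 fell within the wildtype range and the other two libraries did not. The log2FC in sam1Δ/sam1Δ was -0.75 (SE 0.34, adjusted P = 1.00 by limma), short of them. It met the cutoffs when wildtype replicate 1 (log2FC -0.90) or sam1Δ/sam1Δ replicate 1 (log2FC -1.07) was left out. Of the 1630 windows of 75 bases in HXT3, the length of a read, 91.8% occurred once in the genome.

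HXT2, a carrier induced at low glucose, lies on chromosome XIII (288079 to 289704, plus strand). Its signal was 830, 1516 and 720 in sam2Δ/sam2Δ and 1593, 2543 and 2368 in wildtype. The strains did not overlap, although sam2Δ/sam2Δ replicate 2 and wildtype replicate 1 were close to each other. The log2FC was -1.13 (SE 0.33), a 2.19-fold lower level (adjusted P = 0.259 by limma), past the cutoffs. In sam1Δ/sam1Δ HXT2 had 1723, 809 and 753, and replicate 1 stood above the lowest wildtype library. The log2FC in sam1Δ/sam1Δ was -1.06 (SE 0.37), a 2.09-fold lower level (adjusted P = 1.00 by limma), past the cutoffs. This call was lost without any 1 of wildtype replicate 2 (log2FC -0.93) or 3 (-0.98) or sam1Δ/sam1Δ replicate 2 (-0.90) or 3 (-0.85).

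Both calls in sam2Δ/sam2Δ were kept under each of 15 alternatives tried. HXT3 stayed between -1.65 and -1.20 on the log2 scale and HXT2 between -1.46 and -0.92. Without wildtype replicate 1 the log2FC was -1.59 for HXT3 and -1.34 for HXT2. Without sam2Δ/sam2Δ replicate 3, the library with raised haploid-specific genes, it was -1.20 for HXT3 and -0.92 for HXT2. Both mutants were compared with the same wildtype libraries, so the values for HXT2 in the mutants are not independent of each other.

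The upstream sequences of HXT3, HXT2 and HXT1 are shown because these carriers are known targets of Rgt1, whose binding sequence is CGGANNA. The 600 bases before the start codon were searched on both strands in the R64 assembly. HXT3 held 7 matches, HXT1 4, HXT2 3, HXT5 3 and HXT4 2, while HXT6, HXK1 and HXK2 held 1 each and HXT7 and GLK1 none. At least 1 match was found in 48% of 5999 genes and 4 or more in 1.02%, so a single match is common and 4 are not. The stretch of HXT3 lies at chrIV:1165008-1165108 (minus strand, bases -448 to -348 before the start codon), that of HXT2 at chrXIII:287643-287694 (plus strand, -436 to -385) and that of HXT1 at chrVIII:293012-293115 (minus strand, -490 to -387). They hold 4, 2 and 3 matches, in capitals, which read TNNTCCG where the match is on the other strand.
HXT3: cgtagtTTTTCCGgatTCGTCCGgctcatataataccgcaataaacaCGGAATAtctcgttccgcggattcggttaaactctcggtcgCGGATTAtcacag
HXT2: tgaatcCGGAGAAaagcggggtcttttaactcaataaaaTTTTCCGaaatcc
HXT1: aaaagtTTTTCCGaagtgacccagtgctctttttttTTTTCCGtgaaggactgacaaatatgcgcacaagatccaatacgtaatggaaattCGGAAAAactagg
The matches are a description of the letters and say nothing of binding in these cultures.

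HXT1 (chromosome VIII, 290913 to 292625, minus strand) had a signal of 276, 222 and 210 in the sam1Δ/sam1Δ libraries, of 183, 242 and 303 in sam2Δ/sam2Δ and of 185, 342 and 400 in wildtype. The wildtype range held all but 1 of the mutant values. The log2FC was -0.32 (SE 0.31) in sam1Δ/sam1Δ and -0.30 (SE 0.34) in sam2Δ/sam2Δ. Without wildtype replicate 1 the values became -0.66 and -0.64, past the cutoffs in both mutants.

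HXT4, a low-glucose carrier (chromosome VIII, 287081 to 288811, minus strand), had 12551, 15402 and 14260 in sam1Δ/sam1Δ, 15702, 11446 and 13837 in the sam2Δ/sam2Δ libraries and 21034, 13948 and 10298 in wildtype. All 6 mutant libraries fell inside the wildtype range. The log2FC was -0.04 (SE 0.30) in sam1Δ/sam1Δ and -0.09 (SE 0.34) in sam2Δ/sam2Δ.

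HXT5, the carrier of slow growth (chromosome VIII, 294669 to 296447, minus strand), had 1616, 2034 and 2443 in sam1Δ/sam1Δ, 2021, 1283 and 1972 in the sam2Δ/sam2Δ libraries and 1909, 1766 and 1900 in wildtype. It was the steadiest member in wildtype, where the highest library was 1.08 times the lowest. The log2FC was 0.11 (SE 0.18) in sam1Δ/sam1Δ and -0.11 (SE 0.22) in sam2Δ/sam2Δ.

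HXT7 and HXT6 are high-affinity carriers encoded by neighbouring genes on chromosome IV (HXT7 at 1154216 to 1155928 and HXT6 at 1159608 to 1161320, both on the minus strand). Their coding sequences of 1713 bases are 99.82% identical and differ at 3 positions, C1632T, A1666G and C1677T, counted from the first base of the start codon with the HXT7 base first. The stretches from position 1620 to 1689, at chrIV:1154240-1154309 and chrIV:1159632-1159701 on the minus strand, hold all 3 differences, in capitals, and show how little tells the genes apart.
HXT7: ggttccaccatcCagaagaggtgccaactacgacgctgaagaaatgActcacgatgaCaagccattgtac
HXT6: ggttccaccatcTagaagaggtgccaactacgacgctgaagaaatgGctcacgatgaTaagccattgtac
Of 1639 windows of 75 bases in each gene, 82 (5%) occurred once in the genome. HXT7 was listed at 8424, 5300 and 5290 in sam1Δ/sam1Δ, at 10790, 9351 and 5225 in the sam2Δ/sam2Δ libraries and at 4278, 10167 and 10542 in wildtype. HXT6 was listed at 0 to 2.43 in all 9 libraries, which amounts to 0 to 5 reads. How reads shared by the genes were placed is not given in the sources used here, so the HXT7 value may hold reads of either gene and the HXT6 value does not show that the gene was silent. The log2FC of HXT7 was -0.32 (SE 0.41) in sam1Δ/sam1Δ and 0.07 (SE 0.45) in sam2Δ/sam2Δ, neither past the cutoffs. Without wildtype replicate 1 it was -0.74 in sam1Δ/sam1Δ, past them, and -0.36 in sam2Δ/sam2Δ, short of them.

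HXK2, the main hexokinase on glucose (chromosome VII, 23935 to 25395, plus strand), had 3739, 6346 and 3547 in sam2Δ/sam2Δ, against 4878, 8684 and 8468 in wildtype. Replicate 2 of sam2Δ/sam2Δ lay above wildtype replicate 1, so the groups overlapped. The log2FC was -0.70 (SE 0.34, adjusted P = 0.439 by limma), short of the cutoffs. It met them without wildtype replicate 1 (log2FC -0.97), without sam2Δ/sam2Δ replicate 2 (log2FC -0.96) and when the 9 libraries were fitted together (adjusted P = 0.250 by limma, over a range of 0.214 to 0.862 among the alternatives). In sam1Δ/sam1Δ HXK2 had 7318, 6465 and 6462, all within the wildtype range, with a log2FC of -0.08 (SE 0.27).

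HXK1, the hexokinase held low on glucose, is encoded on chromosome VI (253592 to 255049, minus strand) at a locus the table shares with YFR052C-A. Its signal was 81350, 26046 and 31191 in sam1Δ/sam1Δ, 93665, 78084 and 36631 in the sam2Δ/sam2Δ libraries and 18124, 100890 and 76987 in wildtype. Each strain held a library of at most 36631 and another of at least 76987, and the highest wildtype library was 5.57 times the lowest. The log2FC was -0.36 (SE 0.77) in sam1Δ/sam1Δ and 0.31 (SE 0.76) in sam2Δ/sam2Δ. These standard errors were the largest among the 9 tested members. Without wildtype replicate 1 the log2FC was -1.12 in sam1Δ/sam1Δ and -0.45 in sam2Δ/sam2Δ, both short of the cutoffs, so the sign in sam2Δ/sam2Δ rested on that library.

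GLK1, glucokinase (chromosome III, 50838 to 52340, plus strand), shares its locus in the table with YCL041C, YCL042W and YCL043C. It had 30558, 15666 and 15087 in sam1Δ/sam1Δ, 28120, 26599 and 11012 in the sam2Δ/sam2Δ libraries and 14832, 40534 and 31237 in wildtype. Only sam2Δ/sam2Δ replicate 3 lay outside the wildtype range. The log2FC was -0.46 (SE 0.47) in sam1Δ/sam1Δ and -0.40 (SE 0.54) in sam2Δ/sam2Δ. Without wildtype replicate 1 it was -0.88 in sam1Δ/sam1Δ and -0.82 in sam2Δ/sam2Δ, both short of the cutoffs, and without sam2Δ/sam2Δ replicate 3 it was 0.04 in sam2Δ/sam2Δ.

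The upstream stretches of HXK1 and GLK1 are shown because these kinases are known to respond to stress through the element AGGGG. HXK1 held 5 matches in its 600 upstream bases, GLK1 and HXT7 3 each, and HXK2 and HXT2 none. At least 1 match was found in 39.7% of 5999 genes and 4 or more in 0.65%. The stretch of HXK1 lies at chrVI:255517-255647 (minus strand, -598 to -468) and that of GLK1 at chrIII:50650-50681 (plus strand, -188 to -157). Capitals mark the matches, which read CCCCT on the other strand.
HXK1: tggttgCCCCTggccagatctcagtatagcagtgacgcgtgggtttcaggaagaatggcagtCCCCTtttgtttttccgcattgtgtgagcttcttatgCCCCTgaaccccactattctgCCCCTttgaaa
GLK1: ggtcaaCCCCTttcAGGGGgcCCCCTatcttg
The Mig1-type sequence (G or C, then C or T, then a run of G) was found upstream of 9 of the 10 members, with 4 matches in HXT4, 3 in HXT2 and in HXT6 and none in HXT5, and upstream of 27.8% of all genes. The run had to hold 4 G, and 0 matches of the members overlapped a match of another of the 3 sequences.

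Counted over the members, 1 of 9 tested met the cutoffs in sam1Δ/sam1Δ (HXT2, lower). Over all 6109 genes tested in that comparison 1.15% met them and 0.524% did so with a lower level. None of the 9 had groups that did not overlap, beside 6.53% of all genes, and none passed an adjusted P of 0.05 in limma, beside 0.0982% of all genes, while 1 had an unadjusted P of at most 0.05. The median log2FC of the members was -0.32 and 8 of 9 were below 0, with a median of -0.01 over all genes. The count of 1 became 4 without wildtype replicate 1 (HXT1, HXT2, HXT3 and HXT7), where the share of all genes called was 5.84%. It was 2 when sam1Δ/sam1Δ replicate 1 was left out (HXT2 and HXT3, beside 1.90% of all genes). It was 0 without any 1 of wildtype replicates 2 and 3 and sam1Δ/sam1Δ replicates 2 and 3, beside 0.674 to 1% of all genes.

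In sam2Δ/sam2Δ 2 of 9 met the cutoffs (HXT2 and HXT3, both lower). Among the 6099 genes tested 9.85% met them and 4.85% did so with a lower level. Both genes had groups that did not overlap, which held for 22.3% of all genes. None of the members passed an adjusted P of 0.05 in limma, beside 0.115% of all genes, and 2 had an unadjusted P of at most 0.05. The median log2FC was -0.30 and 7 of 9 were below 0, with a median of -0.01 over all genes. The count became 4 without wildtype replicate 1 (HXT1, HXT2, HXT3 and HXK2), beside 12.3% of all genes, and 3 without sam2Δ/sam2Δ replicate 2 (HXK2 in addition), beside 11.1%.

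The mutants were set against each other in a single fit of the 9 libraries. None of the 9 members met the cutoffs there, beside 10.2% of 6139 genes tested, and none passed an adjusted P of 0.05 or had an unadjusted P of at most 0.05 in limma, beside 0.603% of all genes past the adjusted cutoff. HXT3, with 9035, 11416 and 6133 in sam2Δ/sam2Δ and 21379, 12577 and 9832 in sam1Δ/sam1Δ, had a log2FC of -0.69 (SE 0.35, adjusted P = 0.364 by limma). HXK2, with 3739, 6346 and 3547 in sam2Δ/sam2Δ and 7318, 6465 and 6462 in sam1Δ/sam1Δ, had a log2FC of -0.62 (SE 0.30, adjusted P = 0.340 by limma). It was the only member whose values did not overlap between the mutants, beside 25.4% of all genes. HXT2 had a log2FC of -0.07 (SE 0.39) and HXK1 of 0.67 (SE 0.73), and the other 5 lay between -0.22 and 0.39. HXK2 met the cutoffs without wildtype replicate 1 (log2FC -0.62), without sam2Δ/sam2Δ replicate 2 (log2FC -0.89) and in a fit of the 6 mutant libraries (log2FC -0.62). HXT3 met them without sam1Δ/sam1Δ replicate 3 (log2FC -0.93) or sam2Δ/sam2Δ replicate 2 (log2FC -0.89).

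**Figure D2:**
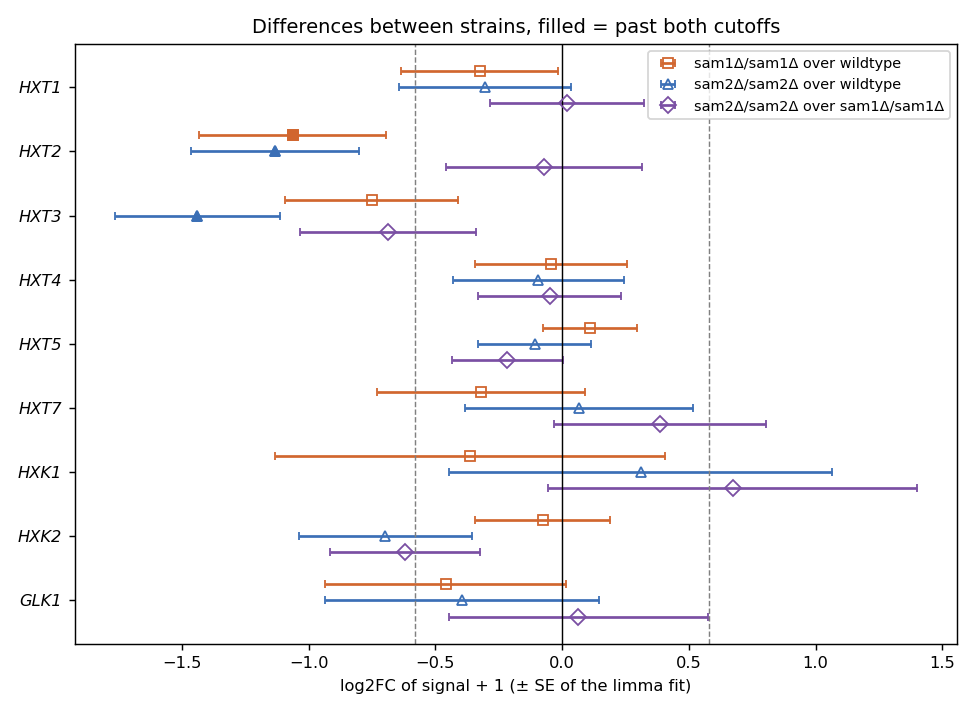
The log2FC of signal plus 1 for the 9 tested members in the 3 comparisons, with the standard error of the limma fit as bars and dashed lines at a log2FC of 0.58 in either direction. The filled symbols, HXT2 in both mutants against wildtype and HXT3 in sam2Δ/sam2Δ against wildtype, mark genes past both cutoffs.

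The make-up of the transporter signal was described as the share of each gene in the summed signal per kb of HXT1 to HXT7, which no scaling between libraries can change. HXT3 held 46.7, 34.9 and 30.3% in sam1Δ/sam1Δ, 23.6, 32.6 and 22.0% in the sam2Δ/sam2Δ libraries and 39.8, 48.9 and 49.1% in wildtype. Every sam2Δ/sam2Δ library thus had a smaller HXT3 share than every wildtype library. HXT4 held 27.0 to 43.2% in sam1Δ/sam1Δ, 32.2 to 48.8% in sam2Δ/sam2Δ and 20.4 to 43.5% in wildtype. HXT7 held 14.6 to 18.3% in sam1Δ/sam1Δ, 18.6 to 28.1% in sam2Δ/sam2Δ and 8.95 to 21.1% in wildtype. HXT5 and HXT2 held 2.28 to 7.21% in every library and HXT1 at most 1.08%. Among the kinases HXK1 held 48.5 to 75.1% of the signal per kb, GLK1 21.0 to 38.5% and HXK2 2.99 to 13.5%, with the HXK1 share at 75.1, 70.8 and 72.0% in sam2Δ/sam2Δ, above the 67.8% of the highest wildtype library. The HXK1 signal itself overlapped between these strains (log2FC 0.31). The GLK1 share was 21.0 to 23.4% in sam2Δ/sam2Δ and 26.2 to 38.5% in wildtype.

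**Figure D3:**
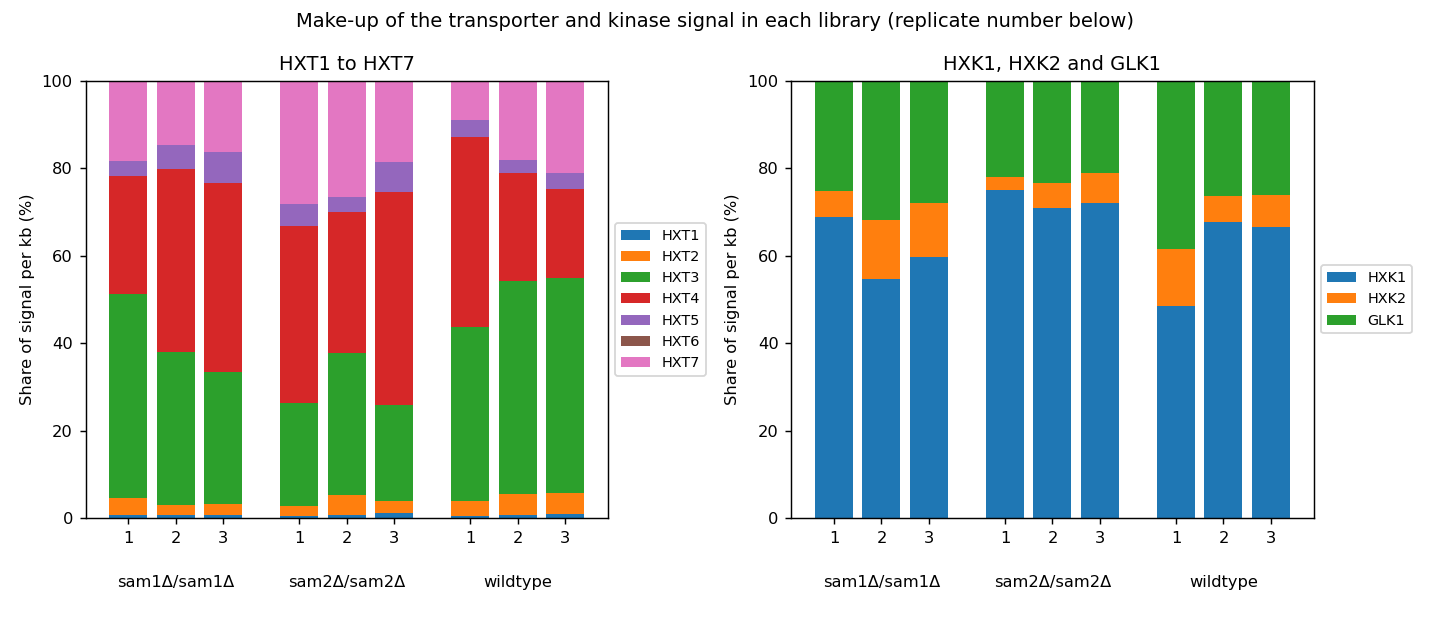
Share of each gene in the signal per kb of coding sequence (%), for the 7 transporters (left) and the 3 kinases (right), as stacked bars for each library with the replicate number below. HXT3 takes 22.0 to 32.6% of the transporter bar in sam2Δ/sam2Δ and 39.8 to 49.1% in wildtype, and HXT6 is too low to be seen.

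A pair of ratios within a library set genes of low glucose against genes of high glucose. The log2 ratio of HXK1 over HXK2 was 4.65, 3.62 and 3.37 in sam2Δ/sam2Δ, 3.47, 2.01 and 2.27 in sam1Δ/sam1Δ and 1.89, 3.54 and 3.18 in wildtype. It was higher by 1.01 in sam2Δ/sam2Δ than in wildtype (exact permutation test, two-sided, P = 0.2, adjusted over 6 tests 0.6), and the ranges overlapped. It was higher by 1.29 in sam2Δ/sam2Δ than in sam1Δ/sam1Δ (exact permutation P = 0.2, adjusted 0.6), and it differed by -0.29 between sam1Δ/sam1Δ and wildtype (exact permutation P = 0.9, adjusted 1). Without wildtype replicate 1 the difference from wildtype was 0.52 in sam2Δ/sam2Δ and -0.78 in sam1Δ/sam1Δ. The log2 ratio of HXT1 over the sum of HXT6 and HXT7 averaged -4.71 ± 0.19 in sam1Δ/sam1Δ, -5.08 ± 0.90 in sam2Δ/sam2Δ and -4.71 ± 0.18 in wildtype (SD, n = 3 each), with exact permutation P values of 0.6 to 1. Leaving out 1 library put its difference between sam2Δ/sam2Δ and wildtype at -0.86 to 0.02. Tests of 3 libraries against 3 cannot give a P below 0.1, so none of these could pass 0.05.

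Libraries of 1 strain differed in HXK1, GLK1 and HXT7 together. The libraries low in HXK1 (18124 to 36631) were wildtype replicate 1, sam1Δ/sam1Δ replicates 2 and 3 and sam2Δ/sam2Δ replicate 3, and these 4 were also the lowest in GLK1 (11012 to 15666) and in HXT7 (4278 to 5300). In the other 5 libraries HXK1 was 76987 to 100890, GLK1 26599 to 40534 and HXT7 8424 to 10790. The 4 libraries also had the 4 negative scores on the first principal component of all 6139 genes, which held 52.4% of the variance. HXT4 did not share this order: its highest value, 21034, was in the library with the lowest HXK1, wildtype replicate 1. Within each strain these libraries were also the lowest in HXT3, HXT2 and HXK2. Across strains HXT3 did not keep this order, since sam2Δ/sam2Δ replicate 1 had the second highest HXK1 and the second lowest HXT3. What sets these 4 libraries apart was not tested.

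**Figure D4:**
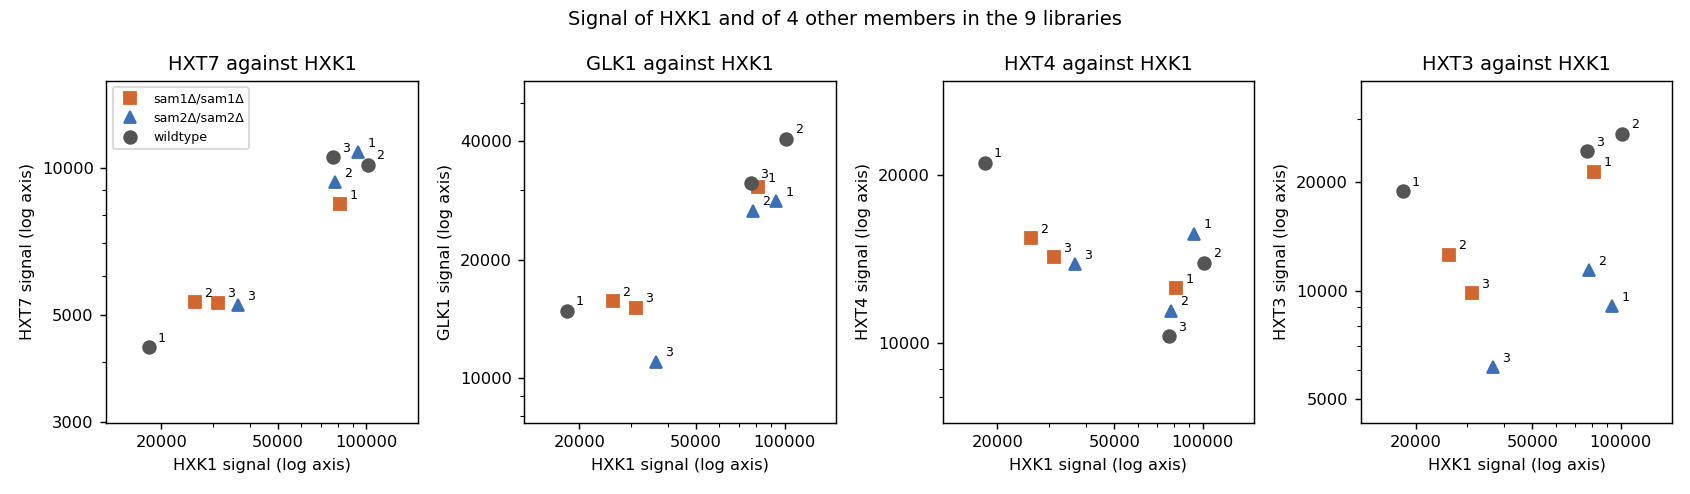
Signal of HXT7, GLK1, HXT4 and HXT3 against that of HXK1 in the 9 libraries (both axes logarithmic), with strain by symbol and the replicate number beside each point. For HXT7 and GLK1 the 4 libraries with HXK1 of at most 36631 lie lowest, for HXT4 the library with the lowest HXK1 lies highest, and for HXT3 the sam2Δ/sam2Δ libraries lie lowest at their HXK1 level.

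Genes outside the 10 whose log2 signal followed a member most closely over the 9 libraries were named by the highest Pearson r among 6130 genes, as a description with no test. HXK1 was followed by YGR111W (r = 1.00), GLK1 by the cell wall gene SPI1 (r = 0.99), HXT7 by the ubiquitin-conjugating enzyme gene UBC4 (r = 0.99), HXT3 by the chromatin remodelling gene IES1 (r = 0.99) and HXK2 by the xanthine phosphoribosyltransferase gene XPT1 (r = 0.98). HXT2 was followed by the vacuolar calcium exchanger gene VCX1 (r = 0.95), HXT4 by SND1 (r = 0.94), HXT5 by YER158W-A (r = 0.94) and HXT1 by the mitochondrial carrier gene AGC1 (r = 0.91). Without the 2 libraries farthest from the median of the member, r stayed at 0.94 to 0.99 for the 6 genes that followed HXK1, GLK1, HXT7, HXT3, HXK2 and HXT2, and was 0.84, 0.76 and 0.75 for those that followed HXT5, HXT1 and HXT4. For HXK1, GLK1 and HXT7 the libraries formed a low and a high set, so r includes that gap. The Spearman rank correlations with the genes that followed them were 1, 0.97 and 0.98. How much of r the gap makes up was not tested.

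The genes that sense glucose or act beside the members were read from 5 lists. In the list of 8 glucose sensing genes, which holds SNF3, RGT2, RGT1, MTH1 and STD1, none met the cutoffs in either mutant, and the median log2FC was -0.05 in sam1Δ/sam1Δ and -0.19 in sam2Δ/sam2Δ. RGT1, the repressor gene itself, had 1029, 958 and 1087 in sam2Δ/sam2Δ and 1180, 1446 and 1474 in wildtype. Of the 12 genes of the glucose repression machinery, 0 met the cutoffs in sam1Δ/sam1Δ and 2 in sam2Δ/sam2Δ, MIG2 and TUP1, both lower, beside 1.15% and 9.85% of all genes, with list medians of -0.16 and -0.06. The counts became 1 in sam1Δ/sam1Δ (MIG3) and 4 in sam2Δ/sam2Δ (MIG3 and SIP2 in addition) without wildtype replicate 1, beside 5.84% and 12.3% of all genes. GLC7, the catalytic subunit of protein phosphatase 1, had 5249, 4194 and 4693 in sam2Δ/sam2Δ and 2819, 3658 and 3098 in wildtype, groups that did not overlap, with a log2FC of 0.56 that was short of the cutoffs. It met them when wildtype replicate 2 or sam2Δ/sam2Δ replicate 2 was left out and under the trimmed-mean (TMM) and same-total scalings.

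MIG2, a glucose-induced repressor gene, had 360, 481 and 369 in sam2Δ/sam2Δ, against 1116, 834 and 963 in wildtype and 776, 858 and 756 in sam1Δ/sam1Δ. No sam2Δ/sam2Δ library reached the lowest of the other strains. The log2FC was -1.27 (SE 0.20, adjusted P = 0.214 by limma) against wildtype and -0.99 (SE 0.17, adjusted P = 0.0462 by limma) against sam1Δ/sam1Δ, where the adjusted P was 0.0303 to 0.266 over 18 alternatives. TUP1, the corepressor that Mig proteins recruit, had 1045, 1267 and 1014 in sam2Δ/sam2Δ and 2263, 1919 and 2064 in wildtype, a log2FC of -0.91 (SE 0.17, adjusted P = 0.222 by limma). Both met the cutoffs in sam2Δ/sam2Δ against wildtype under each of 15 alternatives, and MIG1 itself did not meet them (1131, 1122 and 1181 in sam2Δ/sam2Δ, against 1263, 1375 and 1255 in wildtype).

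Of 7 genes at or just past the branch of glucose 6-phosphate after the kinases, 0 met the cutoffs in sam1Δ/sam1Δ and 3 in sam2Δ/sam2Δ, all lower. Over all genes 1.15% met them in sam1Δ/sam1Δ and 9.85% in sam2Δ/sam2Δ, where 4.85% did so with a lower level. The list median was -0.15 in both mutants, and none of the 7 passed an adjusted P of 0.05 in limma against wildtype. The count in sam1Δ/sam1Δ became 1 without wildtype replicate 1 (TPS1, lower), beside 5.84% of all genes. That in sam2Δ/sam2Δ became 1 without wildtype replicate 2 or sam2Δ/sam2Δ replicate 3 (PFK2), beside 10.4% and 7.78% of all genes. PFK1 and PFK2, the phosphofructokinase subunits, averaged 6925 ± 1019 and 5711 ± 860 in sam2Δ/sam2Δ, against 11159 ± 915 and 9721 ± 1197 in wildtype (SD, n = 3 each), with log2FC values of -0.69 and -0.77. ZWF1, the first enzyme of the pentose phosphate pathway, averaged 3546 ± 889 in sam2Δ/sam2Δ and 5759 ± 1059 in wildtype (log2FC -0.71). The call of PFK1 was lost without any 1 of wildtype replicate 2 (log2FC -0.64) or sam2Δ/sam2Δ replicate 1 (-0.65) or 3 (-0.62), and that of ZWF1 without any 1 of wildtype replicate 2 (-0.61) or 3 (-0.66) or sam2Δ/sam2Δ replicate 2 (-0.75) or 3 (-0.51). Between the mutants, PFK1, PFK2 and ZWF1 were also lower in sam2Δ/sam2Δ (log2FC -0.60, -0.62 and -0.66, past the cutoffs), and these calls were lost without sam1Δ/sam1Δ replicate 1 (-0.55, -0.52 and -0.56) or sam2Δ/sam2Δ replicate 3 (-0.53, -0.53 and -0.46), that of PFK1 also without sam2Δ/sam2Δ replicate 1 (-0.56).

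Of the 11 other transporters of the family 9 were tested, and all were at a signal below 114. In sam1Δ/sam1Δ 2 met the cutoffs, both lower, and in sam2Δ/sam2Δ 0 did, beside 1.15% and 9.85% of all genes, with list medians of -0.18 and -0.53. The count in sam1Δ/sam1Δ was 0 without wildtype replicate 2 or 3, beside 1% and 0.822% of all genes. That in sam2Δ/sam2Δ became 2 without wildtype replicate 1 (HXT11 and HXT12, lower), and 1 without sam2Δ/sam2Δ replicate 2 (HXT17, higher), with all libraries scaled to the same total (HXT17, higher) and in the fit of the 9 libraries (HXT10, lower). Of all genes, 12.3%, 11.1%, 11.9% and 11.3% were called under these settings, in the same order. HXT17, a sugar carrier gene of this family, had 8.50, 7.53 and 5.40 in sam1Δ/sam1Δ, against 50.7, 59.4 and 46.4 in wildtype, a log2FC of -2.72 (SE 0.26). All its sam1Δ/sam1Δ values were below the filter of 10, so it passed the filter through wildtype alone and was not tested when a wildtype library was left out. With no filter on low values the adjusted P was 0.0207 by limma, and among the filtered fits that tested it the adjusted P reached 0.813. It had 94.7, 56.6 and 81.2 in sam2Δ/sam2Δ, and its log2FC between sam2Δ/sam2Δ and sam1Δ/sam1Δ was 3.26 (adjusted P = 0.000513 by limma with no filter). HXT16 was listed at 0 in each of the 9 libraries. Windows found once in the genome were counted for the members alone. How well reads of HXT15, HXT16 and HXT17 can be told from those of related genes was not examined. HXT15 (log2FC -0.62 in sam1Δ/sam1Δ) kept its call under 6 of 14 alternatives. It lost the call with a pseudocount of 5 (-0.54), with the same total in each library (-0.52), in the fit of the 9 libraries, with the replicate number as a block, and without any 1 of wildtype replicate 2 (-0.49) or 3 (-0.61) or sam1Δ/sam1Δ replicate 1 (-0.56) or 2 (-0.56). Of 12 genes repressed by glucose, 1 met the cutoffs in sam1Δ/sam1Δ, the glyoxylate cycle gene MLS1 (log2FC 0.92, SE 0.20, adjusted P = 1.00 by limma), and 0 in sam2Δ/sam2Δ. These counts stand beside 1.15% and 9.85% of all genes, and the list medians were 0.05 and 0.10. The count in sam1Δ/sam1Δ became 4 without wildtype replicate 1 (JEN1, MLS1 and PCK1 higher and SUC2 lower), beside 5.84% of all genes. It became 2 without sam1Δ/sam1Δ replicate 1 (PCK1 in addition), beside 1.90%. In sam2Δ/sam2Δ the count became 1 without sam2Δ/sam2Δ replicate 3 (MLS1, lower), beside 7.78%.

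**Figure D5:**
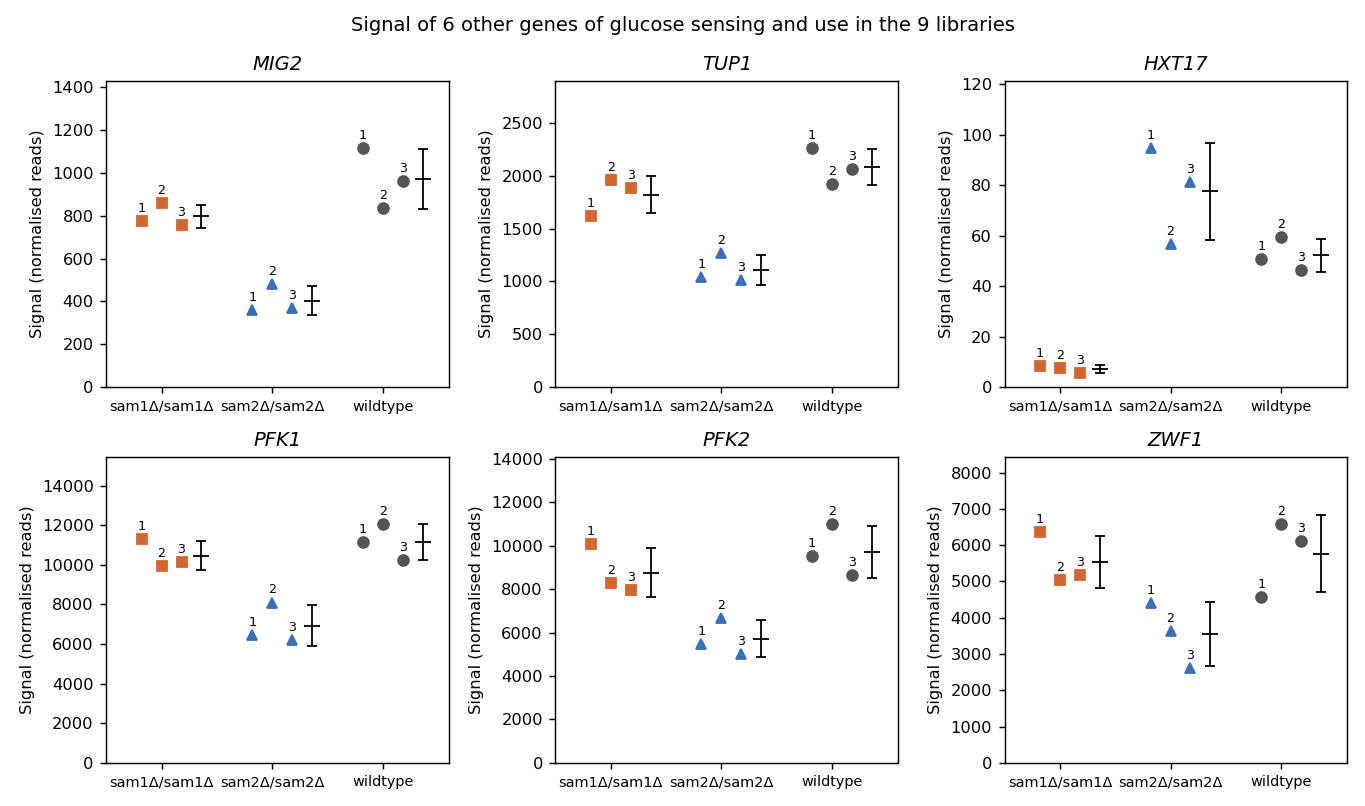
Signal (linear axis from 0) of MIG2, TUP1, HXT17, PFK1, PFK2 and ZWF1 in each library, with replicate numbers and the mean ± SD (n = 3) of each strain. MIG2 is at 360 to 481 in sam2Δ/sam2Δ and at 834 to 1116 in wildtype, and HXT17 is at 5.40 to 8.50 in sam1Δ/sam1Δ and at 46.4 to 59.4 in wildtype.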

How the data were processed

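Per the labels, a stranded kit with poly-A enrichment was used, and the paper's methods give single-end reads of 75 bases. The submitters' processing notes name TopHat2 2.0.13, Cufflinks, Cuffnorm 2.2.1 and the R64 build. The deposited values are signal, the authors' estimate of reads for each gene after division by a library size factor, and 0 value columns had no sample. In each library 97.0 to 98.6% of values were, to within 0.05, whole multiples of a smallest step, taken as the signal of 1 read. At loci shared by several genes 90.7 to 93.2% were.

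Log2(signal + 1) was tested with limma 3.58.1 (R 4.3.3, mean-variance trend) on every gene that reached a signal of 10 in 3 or more libraries. The fit of a mutant against wildtype used their 6 libraries, and that between the mutants all 9. P values were adjusted by Benjamini-Hochberg over all genes tested. They measure the spread between libraries, which no source describes as separate cultures. A test planned for read counts was not used, since the unit is signal. The script was tested on simulated reads drawn independently for each library, a check of the code that does not show how the P values behave in these libraries.

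Members and lists were chosen with earlier results of these data known. The genes named are the 10 members, SAM1, SAM2, the gene most like each member and up to 4 called genes of each list. Some further genes of the lists are named for their role. Sequences are from the R64 genome (RefSeq), where 5246 of 5252 genes alone at their locus had the coordinates of the table. Alternatives changed the pseudocount, scaling, filter, libraries and block. Figures were drawn with Python 3.11.15 and matplotlib 3.10.9.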

Additional observations from a re-analysis of the deposited data

How the results depend on the processing

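Under an adjusted P of at most 0.05 the count of members called was 0 in each comparison. Leaving out 1 library moved the count to 0 to 4 in sam1Δ/sam1Δ against wildtype, 2 to 4 in sam2Δ/sam2Δ against wildtype and 0 to 2 between the mutants. The share of all genes called moved too, to 0.674 to 5.84%, 6.78 to 12.3% and 7.21 to 13.3%, in the same order. A fit of the 6 mutant libraries gave 1 call between the mutants in place of 0, beside 12% of all genes.

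The replicate numbers did not pair the libraries of a mutant with those of wildtype. Deviations from the strain means of equally numbered libraries correlated at -0.85, -0.79 and -0.61 between sam1Δ/sam1Δ and wildtype. Between sam2Δ/sam2Δ and wildtype they correlated at -0.67, 0.13 and -0.66. Between the mutants the values were 0.69, -0.19 and 0.65, so the sign was not the same for all numbers. With the replicate number as a block 0 members were called in sam1Δ/sam1Δ, where HXT2 kept its log2FC of -1.06, 2 in sam2Δ/sam2Δ and 0 between the mutants. Of all genes, 0.835%, 6.38% and 8.52% were called with the block, in the same order. PFK1, PFK2 and ZWF1 lost their calls in sam2Δ/sam2Δ with the block.

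Scaling all libraries to the same total put the median log2FC of all genes at 0.09 in sam1Δ/sam1Δ and 0.15 in sam2Δ/sam2Δ, in place of -0.01 in both. It turned the sign of uncalled values, HXT4 (0.056) and HXK2 (0.024) in sam1Δ/sam1Δ and HXT4 (0.065) and HXT5 (0.050) in sam2Δ/sam2Δ, and took PFK1 (-0.54) and ZWF1 (-0.56) below the cutoffs in sam2Δ/sam2Δ.

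Leaving out 1 library turned the sign of uncalled values too. The ranges in sam1Δ/sam1Δ were -0.29 to 0.23 for HXT4, -0.035 to 0.26 for HXT5, -1.12 to 0.11 for HXK1 and -0.35 to 0.068 for HXK2. In sam2Δ/sam2Δ they were -0.34 to 0.18 for HXT4, -0.22 to 0.10 for HXT5, -0.36 to 0.38 for HXT7, -0.45 to 0.79 for HXK1 and -0.82 to 0.041 for GLK1. Between the mutants the range was -0.39 to 0.31 for HXT2. Only HXT2, HXT3, HXK1 and HXK2 were summarised in this way between the mutants, so signs of the other members may turn there too. The causes were not tested.

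Of 344 alternatives summarised for the members, 305 kept the direction and the side of the cutoffs. Those of HXT1, HXT4, HXT5, HXT7 and GLK1 between the mutants were run but are not in this number. Count-based tests planned for recovered reads were not run, since values at shared loci are not all whole multiples of a step. HXT1, with 111 to 664 reads, and HXT6 are the members that depth limits most.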
